A study of Mus musculus with 8 samples.

Results

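The genes described here are 41 mouse genes of DNA replication and the cell cycle, listed by symbol, of 15490 genes tested in posterior embryos that lack Cdx2. They were taken as every non-control probe carrying one of the 41 symbols, or an accession of one of them, which gave 67 probes. Of these, 65 were found by symbol and 2, for Cdk1 (listed under its older name Cdc2a), by accession. The members were placed in 3 groups by role: 17 replication genes, 13 mitosis genes and 11 genes of G1 and of entry into S phase.

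The tissue was the posterior part of mouse embryos of strain C57Bl6J/CBA at 4/5 or 7/8 somites, either Cdx2 null mutant or wild type. Cdx2 is a homeobox transcription factor needed for posterior axis growth. RNA of 20 embryos was pooled for each genotype and stage, so there were 4 pools, and both pools of a stage were hybridised together on 4 Agilent arrays with 2 colours, 8 arrays in all. The null pool carried Cy3 on arrays 1 and 3 and Cy5 on arrays 2 and 4 of each stage, and arrays 3 and 4 repeat arrays 1 and 2 on a second slide. How the null allele was made, and what the embryos carried besides, was not stated in the labels.

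Before a cell divides, the Mcm2-7 helicase is loaded on origins by Cdc6 and Cdt1, is activated with the GINS complex, and opens DNA for the polymerases and their clamp Pcna. Entry into S phase is set by D-type and E-type cyclins with Cdk4 and Cdk2, which release E2F factors from the retinoblastoma proteins. Mitosis is driven by A-type and B-type cyclins with Cdk1, and ends when Cdc20 directs the anaphase-promoting complex to its substrates. Replication genes are known as targets of E2F, and mitosis genes are known for a promoter element named CHR, often beside CCAAT boxes.

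The promoter letters that the gene groups share were read from RefSeq windows of build GRCm38.p6, which run from 250 bases before to 50 bases after a gene's start and exist in the table for 31 of the 41 members. E2F was searched as TTTGGCGC, TTTCCCGC, TTTCGCGC and TTTGCCGC, CHR as TTTGAA and TTCGAA, and the CCAAT box as CCAAT, each on both strands. E2F matches on opposite strands can overlap each other, as they do in Mcm6. The 150 bases before the start of 6 members are shown, because they carry the E2F letters of replication genes or the CHR letters of mitosis genes, and Mcm2 because its value is described below. Capitals mark the matches of any of the 3 motifs on either strand, and each sequence runs 5′ to 3′ on the gene's strand.
Mcm6: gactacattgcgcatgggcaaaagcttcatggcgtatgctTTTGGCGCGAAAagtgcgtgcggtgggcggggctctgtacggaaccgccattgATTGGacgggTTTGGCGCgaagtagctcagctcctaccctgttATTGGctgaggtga
Mcm5: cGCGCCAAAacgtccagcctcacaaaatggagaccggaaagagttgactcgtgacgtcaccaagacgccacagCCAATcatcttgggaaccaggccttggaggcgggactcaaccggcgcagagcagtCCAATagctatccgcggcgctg
Mcm2: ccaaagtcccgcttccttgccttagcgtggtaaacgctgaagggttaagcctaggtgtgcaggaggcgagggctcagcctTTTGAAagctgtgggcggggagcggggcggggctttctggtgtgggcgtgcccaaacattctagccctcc
Cdc20: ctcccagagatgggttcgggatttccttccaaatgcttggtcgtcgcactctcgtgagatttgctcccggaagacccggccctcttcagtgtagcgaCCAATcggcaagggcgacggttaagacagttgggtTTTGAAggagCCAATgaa
Cdk1: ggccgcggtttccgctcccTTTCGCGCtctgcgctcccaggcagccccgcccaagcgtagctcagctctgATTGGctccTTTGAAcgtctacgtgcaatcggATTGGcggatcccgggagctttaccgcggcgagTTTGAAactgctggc
Top2a: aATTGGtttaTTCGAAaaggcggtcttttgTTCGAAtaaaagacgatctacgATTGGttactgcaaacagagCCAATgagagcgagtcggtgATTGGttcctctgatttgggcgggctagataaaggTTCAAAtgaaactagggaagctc
The stretches lie at chr1:128359706-128359855, minus strand (Mcm6), chr8:75109359-75109508, plus strand (Mcm5), chr6:88898781-88898930, minus strand (Mcm2), chr4:118437344-118437493, minus strand (Cdc20), chr10:69352913-69353062, minus strand (Cdk1) and chr11:99024190-99024339, minus strand (Top2a). Mcm6 and Mcm5, subunits of the helicase, hold E2F letters and CCAAT boxes. Mcm2, another subunit, holds 1 CHR match and no E2F match in its stretch. Cdc20 and Cdk1 hold CHR letters close to the start, and Cdk1 holds 1 E2F match as well. Top2a, a topoisomerase that untangles chromosomes, holds 3 CHR matches and 4 CCAAT boxes in its stretch.

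Counted over the windows, E2F letters were in 7 of 13 replication members (53.8%), 1 of 11 mitosis members (9.09%) and 2 of 7 members of G1 and S entry (28.6%), against 2.6% of the 27025 genes with a window. CHR letters were in 2 of 13 replication members (15.4%), 9 of 11 mitosis members (81.8%) and 1 of 7 members of G1 and S entry (14.3%), against 21.7% of all genes. A CCAAT box was in 10 of 13 replication members (76.9%), 10 of 11 mitosis members (90.9%) and 3 of 7 members of G1 and S entry (42.9%), against 41.1% of all genes. Among genes that are not members, E2F letters were in 11 of 36 other replication genes (30.6%), 0 of 33 other mitosis genes and 8 of 34 other regulators (23.5%). CHR letters were in 9 of 36 (25%), 24 of 33 (72.7%) and 7 of 34 (20.6%). None of these differences was tested. A match is a run of letters and not a shown binding site.

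**Figure D1:**
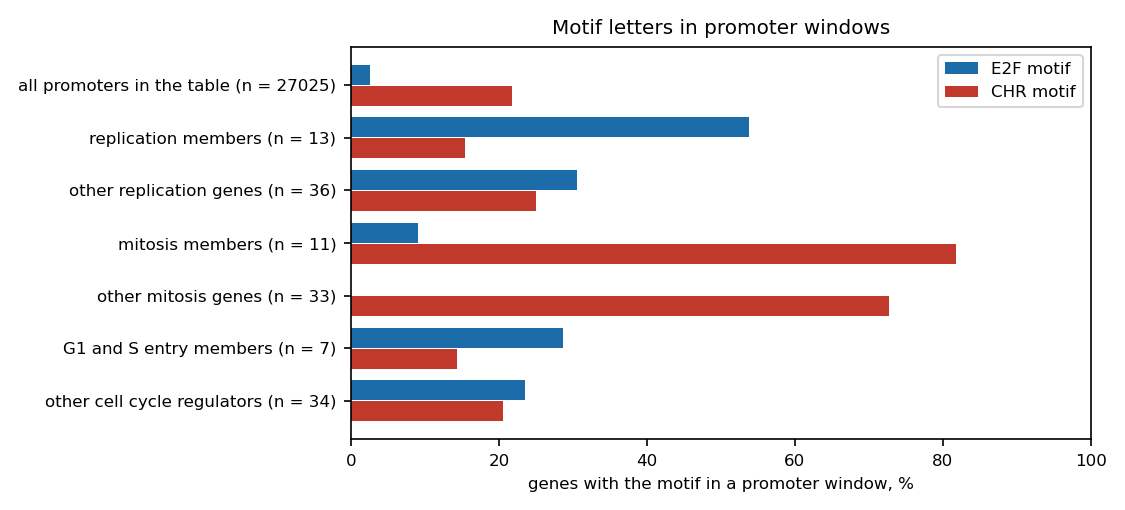
Share of genes, in percent, with the E2F or CHR letters in a promoter window, for each gene list and for all promoters in the table (n is the number of genes with a window). Replication members are at 53.8% for E2F and mitosis members at 81.8% for CHR, against 2.6% and 21.7% of all genes.

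Every member was measured. All 41 had a probe above the limit on dim signal, 58 of their 67 probes passed it, and 40 of 41 were well above background in both genotypes on all 8 arrays. The exception was Cdk2, a kinase of S phase entry, which was well above background on 3 of 4 arrays in each genotype at 4/5 somites. Values below are log2 ratios of null over wild type on the brightest probe of each gene. A ratio is positive where the null pool was brighter. Arrays of a stage share their RNA, so their spread is technical, and the test compares the 2 stage means with a spread shared across genes.

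Cdx2 itself read -1.23 at 4/5 somites and -1.55 at 7/8 somites, below 0 on all 8 arrays (-1.39, SE 0.09, adjusted p = 3.25e-09), and whether its probe lies in the deleted part was not analysed here. The share of probes well above background ran from 46.5% to 58.9% across channels. Among marker lists of other tissue, 5 of 10 visceral endoderm genes were called higher in the null, with mean ratios of the 10 from -0.17 to 1.18. The log2 of their summed levels, in which the brightest genes weigh most, was taken on single arrays. It was 15.01 to 15.14 in wild type and 15.63 to 15.75 in null pools at 4/5 somites. At 7/8 somites it was 14.39 to 14.44 in wild type and 14.88 to 14.95 in null pools. Of 6 trophoblast genes tested, 3 were called higher and 1 lower, 4 of 7 endothelium genes were called lower, and 3 of 4 somite genes were called higher. Of 5 primitive red cell genes tested, 1 was called lower, and of 2 anterior neural genes tested, 1 was called higher. Of the 10 posterior embryo genes, all tested, 3 were called lower, with a median ratio of -0.39 at 4/5 somites and 0.11 at 7/8 somites. Over all genes, 6.47% were called higher and 4.36% lower. The part of these tissues in the member ratios was not tested, and in pooled tissue fewer cells of a type and less RNA per cell cannot be told apart.

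Across replication, mitosis and G1, 0 of the 41 members passed the test of null against wild type over both stages (limma, adjusted p of at most 0.05), whereas 10.8% of all genes were called, 6.47% higher and 4.36% lower. Without adjustment, 5 of the 41 had a p under 0.05 (Mcm2, Gins1, Cdc20, Ccnd2 and Cdk4), against 22.2% of all genes. The members' mean ratios ran from -0.30 to 0.24, with a median of 0.02 and a median size of 0.07, against a median of -0.01 and a median size of 0.09 over all genes. The 95% interval of the ratio over both stages lay within 1.5-fold of no change for 41 of 41 members and 95% of all genes. It lay within 1.25-fold for 31 members and for 68.1% of all genes. The width of these intervals came mostly from the spread shared across genes (prior 18.89 degrees of freedom, against 1 of the gene). They do not bound the ratio at a single stage. Ccnd2 had an interval of 0.01 to 0.48 but a ratio of 0.58 at 7/8 somites. A sign shared by all 8 arrays was found for 2 members, Cdc6 and Gins1, against 19.6% of all genes. With slide as a block, which counts arrays of the same pools as separate values, 4 members were called (Cdc20 higher, and Ccnd3, Cdk4 and Gins1 lower), against 16.5% of all genes.

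**Figure D2:**
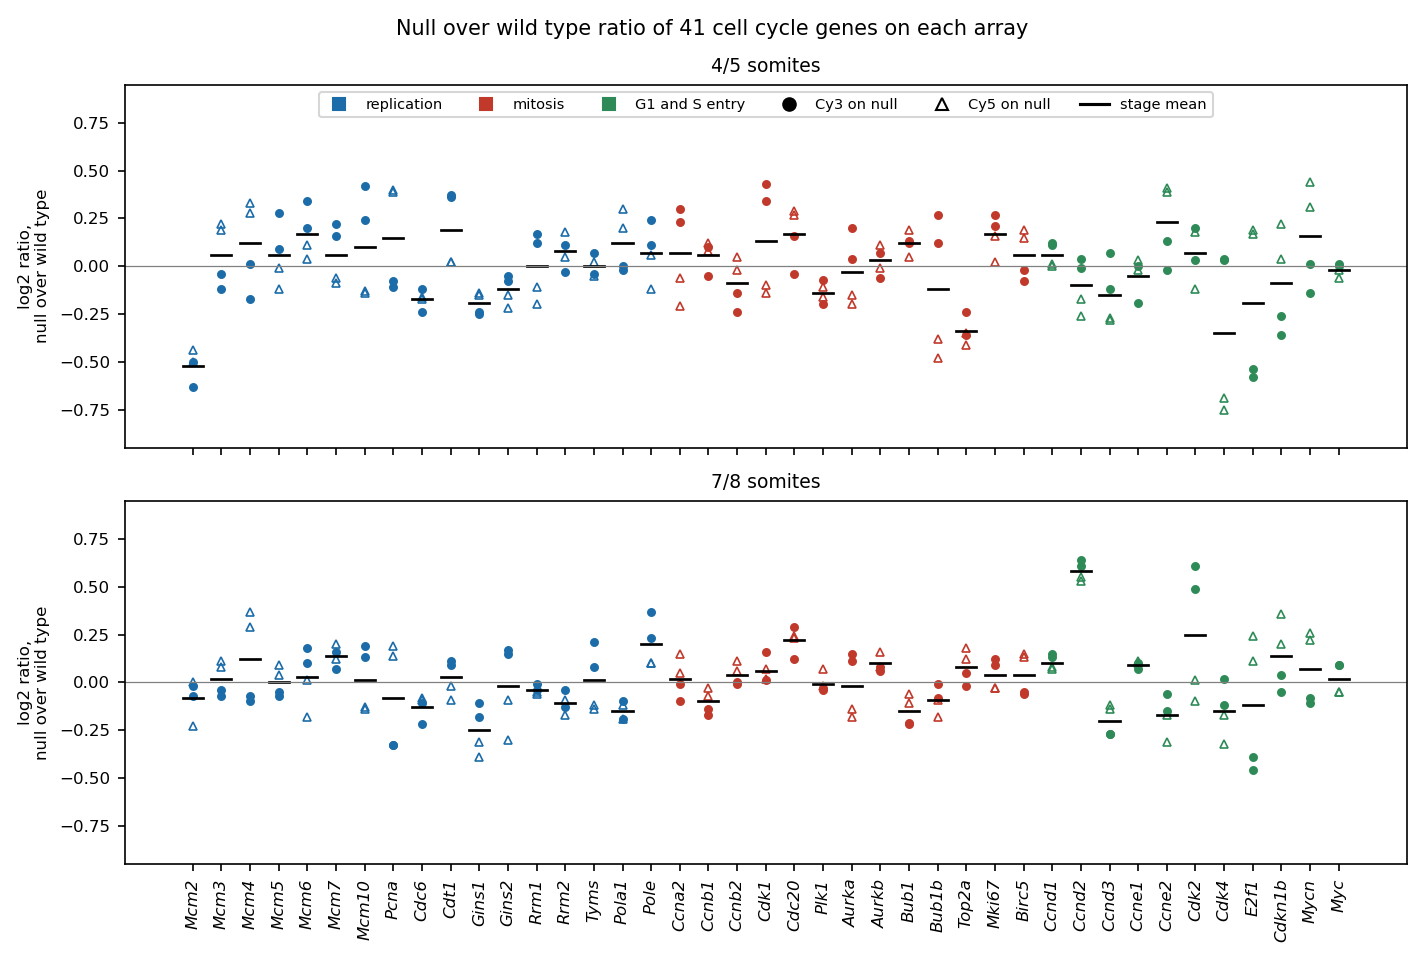
Log2 null over wild type ratio of each of the 41 members on each array, at 4/5 somites (top) and 7/8 somites (bottom), with filled circles for Cy3 on null, open triangles for Cy5 on null, and a bar for the stage mean of 4 arrays. Most stage means lie near 0, with Mcm2 at -0.52 at 4/5 somites and Ccnd2 at 0.58 at 7/8 somites standing farthest from it.

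Within a stage no member reached 1.5-fold (0.585 on the log2 scale) with the same sign on all 4 arrays. At 4/5 somites 2.32% of all genes passed this rule and at 7/8 somites 2.61% did. The nearest to the limit were Ccnd2 at 7/8 somites, at 0.58, just under it, and Mcm2 at 4/5 somites, at -0.52. The ratio of the stages was at least 1.5-fold apart with no overlap of arrays for 1 member, Ccnd2, against 1.01% of all genes. With no size limit, the arrays of both stages did not overlap for 9 members (Mcm2, Rrm2, Pola1, Plk1, Bub1, Top2a, Ccnd2, Ccne1 and Ccne2) of 41, against 18.7% of all genes. The levels of a genotype were also set against each other between stages, and 0 of 41 members were 1.5-fold apart without overlap in wild type pools (1.51% of all genes) or in null pools (1.83% of all genes).

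**Figure D3:**
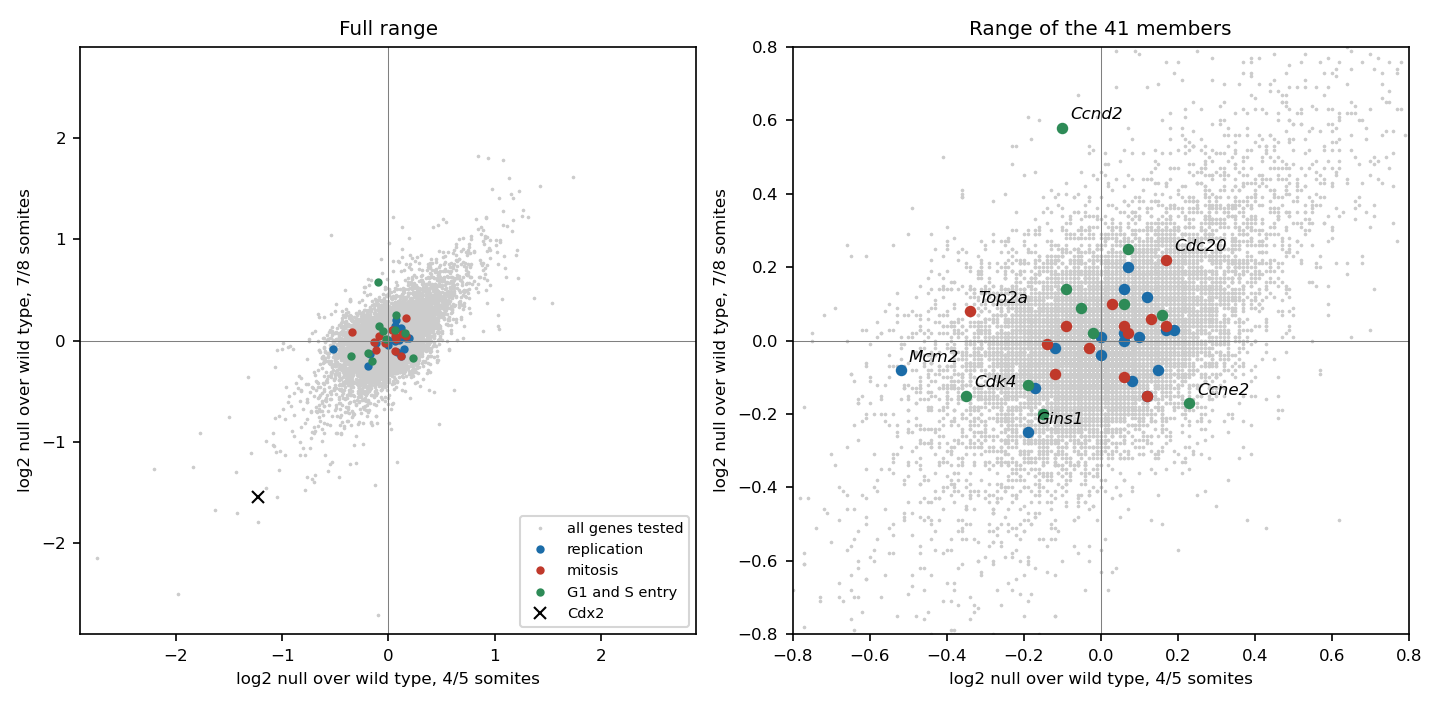
Stage mean log2 null over wild type at 4/5 somites (x) against 7/8 somites (y) for all 15490 genes tested (grey) and the 41 members (coloured by role), over the full range with Cdx2 (cross, left) and over the range of the members (right). The members lie near the centre, and Ccnd2 lies above it at -0.10 and 0.58.

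The replication genes had ratios of both signs. Their median ratio was 0.06 at 4/5 somites, -0.00 at 7/8 somites and 0.03 over both, with 10 of 17 above 0, and 0 of 17 called. Mcm2, a helicase subunit, was the member with the largest mean ratio in size. Its ratios at 4/5 somites were -0.63, -0.50, -0.50 and -0.44 on arrays 1 to 4, and at 7/8 somites -0.07, -0.23, -0.02 and 0.00. All 4 arrays of 4/5 somites were lower than every array of 7/8 somites. The mean was -0.52 ± 0.08 (SD over 4 arrays) at 4/5 somites and -0.08 ± 0.10 at 7/8 somites, and over both -0.30 (SE 0.10), with an adjusted p of 0.0563 that misses the threshold. Its log2 level was 12.50 in wild type and 11.98 in null pools at 4/5 somites, and 12.22 and 12.14 at 7/8 somites. The probe lies at chr6:88833619-88833678 of mm9, the build of the probe positions.

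The other subunits of the helicase had ratios above 0. Mean ratios over both stages were 0.04 for Mcm3, 0.12 for Mcm4, 0.03 for Mcm5, 0.10 for Mcm6 and 0.10 for Mcm7, none called. The difference between Mcm2 and these subunits was not tested, and each ratio is of a gene against itself, so levels of different probes are not set against each other. A second Mcm3 probe read -0.31 at 4/5 somites and 0.01 at 7/8 somites, where the brightest read 0.06 and 0.02. Over both stages that second probe was below 0, at -0.15.

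Gins1, a subunit of the GINS complex, was below 0 on all 8 arrays on its brightest probe, with ratios of -0.24, -0.15, -0.25 and -0.14 at 4/5 somites and -0.11, -0.39, -0.18 and -0.31 at 7/8 somites. The arrays of the stages overlapped. The mean was -0.22 (SE 0.08, adjusted p = 0.11), and the 95% interval ran from -0.40 to -0.05. A second Gins1 probe was below 0 on all 4 arrays of 4/5 somites but read 0.15, -0.34, 0.14 and -0.30 at 7/8 somites (-0.14 over both, adjusted p = 0.406 where each probe was tested alone). Its partner Gins2 read -0.07. Cdc6, which loads the helicase, was also below 0 on all 8 arrays, at -0.12, -0.17, -0.24 and -0.16, and then -0.22, -0.09, -0.11 and -0.08. Its mean was -0.15 (SE 0.08, adjusted p = 0.327), and its fellow loader Cdt1 read 0.11. A second Cdc6 probe read 0.03 at 4/5 somites and -0.08 at 7/8 somites.

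Of the polymerase and nucleotide genes, Pcna, the sliding clamp, read 0.04 over both stages, Pola1 -0.01 and Pole 0.14. The ribonucleotide reductase subunits Rrm1 and Rrm2 read -0.02 and -0.01, and Tyms, which makes thymidylate, read 0.00. None was called, and the 95% intervals of these 6 reached down to -0.20 (Pola1, Rrm1 and Rrm2) and up to 0.31 (Pole).

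The mitosis genes also had ratios of both signs. Their median ratio was 0.06 at 4/5 somites, 0.04 at 7/8 somites and -0.01 over both, with 6 of 13 above 0, and 0 of 13 called. The median of replication genes minus that of mitosis genes was -0.06, -0.04, -0.05 and 0.03 on the arrays of 4/5 somites and -0.06, -0.16, -0.02 and -0.07 on those of 7/8 somites. These arrays are technical repeats of 4 pools, and the medians of the genes' mean ratios over both stages lie the other way round, at 0.03 for replication and -0.01 for mitosis.

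Cdc20, the activator of the anaphase-promoting complex, had ratios of -0.04, 0.29, 0.16 and 0.27 at 4/5 somites and 0.12, 0.23, 0.29 and 0.24 at 7/8 somites. It was above 0 on 7 of 8 arrays and the stages overlapped. The mean was 0.20 (SE 0.08, adjusted p = 0.168).

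Top2a was below 0 on all 4 arrays of 4/5 somites, at -0.24, -0.35, -0.36 and -0.41, and near 0 at 7/8 somites, at 0.05, 0.12, -0.02 and 0.18. The stages did not overlap. The mean over both was -0.13 (SE 0.10, adjusted p = 0.509). Its log2 level was 11.68 in wild type and 11.34 in null pools at 4/5 somites, and 11.27 and 11.35 at 7/8 somites. A second probe read -0.50 and -0.23 and was called lower where each probe was tested alone (-0.37, adjusted p = 0.0174). At 7/8 somites the sign of that probe followed the dye order, at -0.73, 0.22, -0.75 and 0.33, and its stages overlapped. The remaining probe was too dim to test.

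Bub1b, a spindle checkpoint kinase, had ratios of 0.27, -0.48, 0.12 and -0.38 at 4/5 somites and -0.01, -0.09, -0.08 and -0.18 at 7/8 somites. The sign at 4/5 somites followed the dye order. The mean was -0.10 (SE 0.08, adjusted p = 0.554). Among the rest, the mitotic cyclins read 0.04 (Ccna2), -0.02 (Ccnb1) and -0.02 (Ccnb2), their kinase Cdk1 0.10, the kinases Plk1, Aurka and Aurkb -0.07, -0.02 and 0.06, and Birc5, a partner of Aurkb, 0.05. The other Ccnb1 probes read -0.00 and -0.03, and 0.25 and -0.11, at 4/5 and 7/8 somites. Mki67, the antigen used to mark cycling cells, read 0.17 and 0.04 on its brightest probe, whereas its second probe read -0.29 and 0.10.

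In the genes of G1 and S phase entry, 0 of 11 were called, with medians of -0.05 at 4/5 somites, 0.07 at 7/8 somites and 0.02 over both. Ccnd2, cyclin D2, which drives G1 progression with Cdk4, was the member with the largest difference between stages. Its ratios were 0.04, -0.26, -0.01 and -0.17 at 4/5 somites and 0.61, 0.55, 0.64 and 0.53 at 7/8 somites. Every array of 7/8 somites was above every array of 4/5 somites. The stage means were -0.10 ± 0.14 and 0.58 ± 0.05 (SD over 4 arrays), 0.68 apart, a size rule with no test since each stage has 1 pool per genotype. Over both stages the mean was 0.24 (SE 0.11, adjusted p = 0.212).

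The log2 level of Ccnd2 was 13.68 and 13.57 in wild type pools at 4/5 and 7/8 somites, and 13.58 and 14.15 in null pools. From 4/5 to 7/8 somites the level differed by 0.57 in null pools, just under the 1.5-fold limit, and by -0.11 in wild type pools. The other probes of Ccnd2 read -0.11 and 0.67, and -0.16 and 0.34, at 4/5 and 7/8 somites. The stage means of the last, the dimmest of the 3, were less than 1.5-fold apart, so it misses the size rule. All 3 probes were above 0 on all 4 arrays of 7/8 somites, and they lie on mm9 at chr6:127079694-127079753, chr6:127089187-127089246 (the brightest) and chr6:127098696-127098755. Whether they lie in exons or UTRs was not analysed here.

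**Figure D4:**
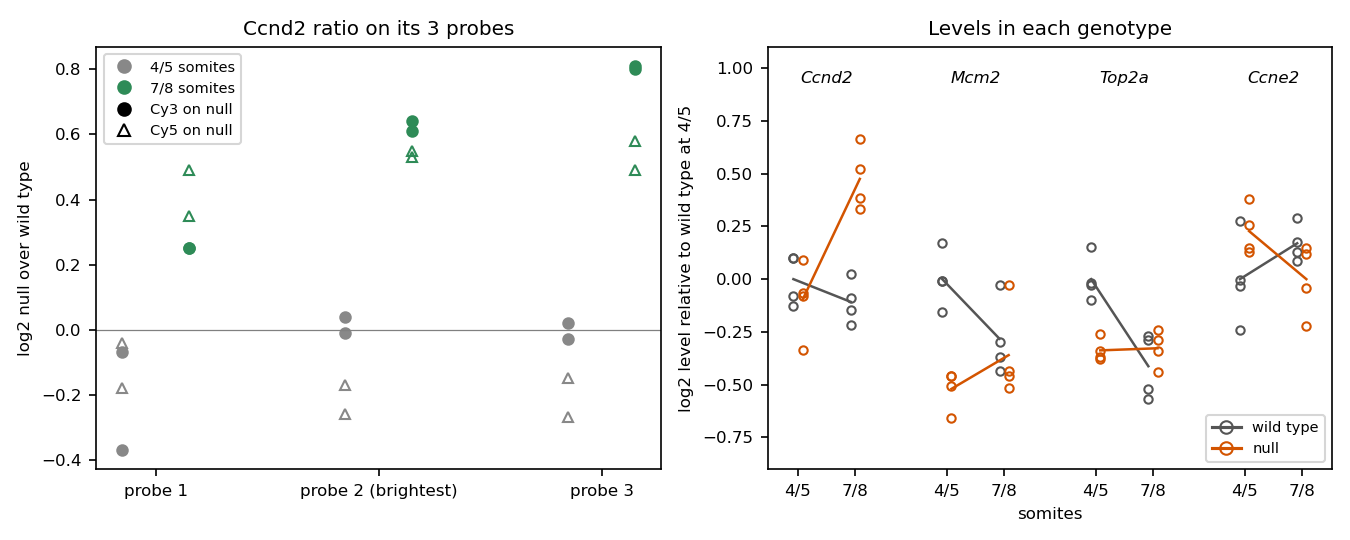
Left, log2 null over wild type of the 3 Ccnd2 probes, ordered by position, on each array at 4/5 somites (grey) and 7/8 somites (green), with filled circles for Cy3 and open triangles for Cy5 on null. Right, log2 levels of Ccnd2, Mcm2, Top2a and Ccne2 in wild type (grey) and null (orange) pools, relative to the wild type mean at 4/5 somites, with each array as a point and lines through the means. Ccnd2 of the null pools is higher at 7/8 somites.

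The other D-type cyclins had ratios closer to 0 than Ccnd2 at 7/8 somites. Ccnd1 read 0.06 and 0.10 at the stages. Ccnd3 had ratios of 0.07, -0.28, -0.12 and -0.27, and then -0.27, -0.14, -0.27 and -0.12, with a mean of -0.18 (SE 0.08, adjusted p = 0.228), and was below 0 on 7 of 8 arrays. Cdk4, the kinase partner of these cyclins, had ratios of 0.04, -0.75, 0.03 and -0.69 at 4/5 somites and 0.02, -0.32, -0.12 and -0.17 at 7/8 somites. It was near 0 with Cy3 on null and low with Cy5 on null at 4/5 somites. Its mean was -0.25 (SE 0.09, adjusted p = 0.0803).

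Of the E-type cyclins, which act with Cdk2, Ccne1 read -0.05 and 0.09 at the stages. A second Ccne1 probe read -0.29, below 0 on all 4 arrays, at 4/5 somites and -0.01 at 7/8 somites. Ccne2 had ratios of -0.02, 0.41, 0.13 and 0.39 at 4/5 somites and -0.15, -0.31, -0.06 and -0.17 at 7/8 somites, with no overlap of the stages and a second probe at 0.25 and -0.10. Cdk2 read 0.16, E2f1, an E2F factor, -0.16, the kinase inhibitor Cdkn1b 0.02, and the transcription factors Mycn and Myc, which drive growth, 0.12 and -0.00. A second Mycn probe read 0.23 and 0.35 and was called higher where each probe was tested alone (0.29, adjusted p = 0.0445). Of the 14 members with more than 1 tested probe, the probes were within 0.25 of each other at both stages for 9 and farther apart for 5 (Ccnd2, Mcm3, Mki67, Mycn and Top2a). Ccnb1 and Ccne1, counted within, lay at that limit at 4/5 somites.

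Some ratios differed by dye order on the brightest probe. E2f1 had a mean ratio of -0.49 on the 4 arrays with Cy3 on null and 0.18 on the 4 with Cy5, and Cdk4 had -0.01 and -0.49. A second E2f1 probe split the other way, at -0.15, 0.04, -0.11 and 0.05 with Cy3 on null and -0.34, -0.30, -0.39 and -0.25 with Cy5. The sign was opposite by dye order on all 8 arrays for 6 of 41 members (Mcm3, Mcm10, Pcna, Aurka, Birc5 and E2f1), against 7.17% of all genes. The dye orders did not overlap for 17 of 41 members, against 24.1% of all genes. The mean of a stage holds both orders equally.

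**Figure D5:**
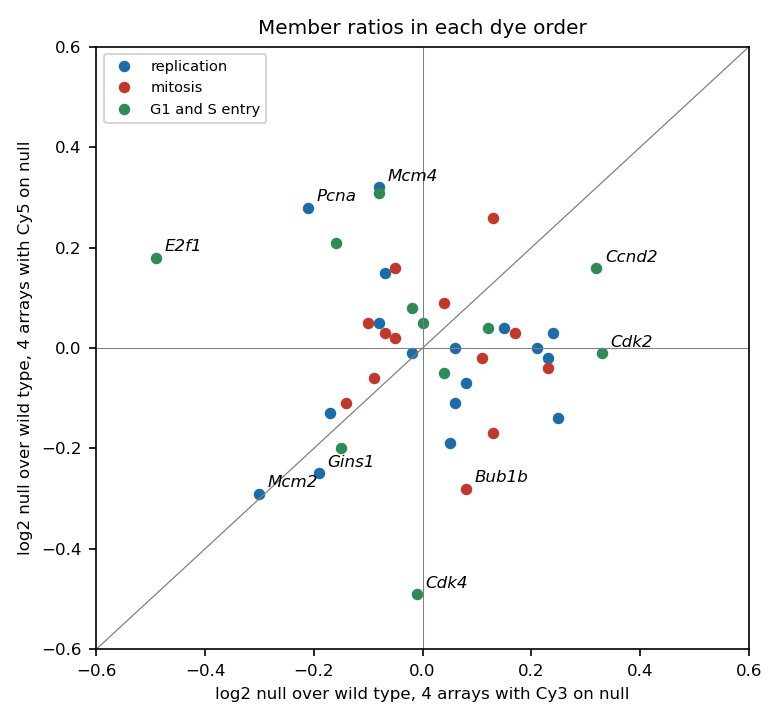
Mean log2 null over wild type of each member on the 4 arrays with Cy3 on null (x) and the 4 with Cy5 on null (y), coloured by role, with the diagonal. Mcm2 and Gins1 lie near the diagonal, and E2f1 lies far from it at -0.49 and 0.18.

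The wider pathways were read from lists of genes that are not members. Of 42 other replication genes, all tested, 1 was called higher (Prim2, the large primase subunit, 0.38, adjusted p = 0.00509) and 0 lower, with a median of 0.01. Of 39 other mitosis genes, 2 were called lower, Knl1, a kinetochore scaffold (-0.54, adjusted p = 0.000283), and Ube2s, which extends ubiquitin chains for the anaphase-promoting complex (-0.37, adjusted p = 0.00596), with a median of 0.05. Knl1 was -0.97 with Cy3 on null and -0.11 with Cy5. Of 36 other regulators, 3 were called higher and 1 lower. Over all genes the shares were 6.47% higher and 4.36% lower, and no list was tested against them. The kinase inhibitor Cdkn2b was higher (adjusted p = 0.00446), but it was not well above background in wild type on any of the 8 arrays and was so in null on 6. It passed the limit on dim signal only through the null pools, where it is high. Its adjusted p is therefore no support for a difference. Taking for wild type, per array, the higher of its own signal and the dimmest signal that the scanner marked as well above background, it was at least 1.23-fold higher at 4/5 somites and at least 1.24-fold higher at 7/8 somites. Gadd45a, a stress-response gene (0.32, adjusted p = 0.0185), and Gas1 (0.31, adjusted p = 0.0225) were higher, and the antiproliferative gene Btg2 was lower (-0.43, adjusted p = 0.00169). Cdkn1a, another kinase inhibitor, read 0.26 (adjusted p = 0.0567). The calls in these lists came from the same limma fit as the members' values.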

How the data were processed

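Messenger RNA was measured on 8 Agilent arrays with 2 colours. Per the file headers, the deposited spot and background values are intensities with no normalization, and the scanner's flags mark uneven, outlying or well above background spots. The scanner's log10 ratio, per the file headers, is of Cy5 over Cy3, and the deposited series matrix equalled it, turned to null over wild type, at 45018 of 45018 spots on each array (tolerance 1e-05). Per the submitters' processing notes, Agilent Feature Extraction 9.5.3 was used, while the header gives 10.5.1.1.

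Background was corrected with normexp (offset 50) on mean signals, and arrays were normalized by loess in limma 3.58.1 (R 4.3.3). Spots with uneven local background received their array's median background, and outlier spots were left out (1184, 0.341%). No non-control spot was saturated. Of 41174 probes, 21907 were well above background in a genotype's channel on at least 3 of 4 arrays of a stage. Names came from RefSeq accessions of GRCm38.p6 (25097 probes matched) or else from the files, and the brightest probe stood for a gene, leaving 15490 genes. Ratios were averaged within dye order and then within stage. The 2 stage values were fitted with lmFit and eBayes (1 residual degree of freedom, prior 18.89, prior SD 0.122), two-sided, with Benjamini-Hochberg adjustment over all genes. P-values set the mean of the 2 stage values against 0, by a spread between stages that is mostly shared across genes. Genotype levels are log2 channel values after loess and Aquantile. Members and lists were chosen with earlier results of these data known. Members named with values on every array are those past a rule and the 3 of each group with the largest mean ratio in size; values of Ccne2, E2f1, second probes and others were added after seeing them. The alternatives are in the closing section.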

Additional observations from a re-analysis of the deposited data

Results flagged for a closer look

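Array 2 of 7/8 somites stood apart from the other 3 arrays of its stage for Plk1, at 0.07 against -0.04 to -0.02, and for Aurkb, at 0.16 against 0.06 to 0.08. These are 2 of 82 sets of 4 arrays. For 4 independent values, chance would flag about 1 in 20, or 4.1 sets. Each set here holds 2 dye orders, so 4.1 may not be the rate in these data.

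Bub1, a spindle checkpoint kinase, was above 0 on all 4 arrays of 4/5 somites (mean 0.12) and below 0 on all 4 of 7/8 somites (mean -0.15), a difference of -0.27 that was not tested. Opposite signs between stages on all arrays were found for 3.85% of all genes. Its second probe did not show the reversal: it read -0.00 at 4/5 and 0.01 at 7/8 somites, with arrays of both signs at each stage.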

How the results depend on the processing

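No member was called over both stages. This held with each of the 8 arrays left out in turn (0 to 0 members higher and lower). Between 4.29% and 10.6% of all genes were then called. It also held without background correction (3.16% of all genes), with uneven backgrounds kept (6.33%), with median centring (7.48%) and with no filter on dim probes (2.6%). The mean of all probes (8.97%) and slide 2 alone (10.1%) also called 0 members. Where few genes are called in all, 0 of 41 members says little. Other settings called members, given here with the share of all genes called. The scanner's log ratio (11.7%) called 1 higher (Cdk2, 0.40, adjusted p = 0.0389). With loess normalization, the mean ratio of Cdk2 was 0.33 with Cy3 on null and -0.01 with Cy5. Testing every probe (8.4% of probes) called 1 higher (Mycn) and 1 lower (Top2a). Slide 1 alone (9.27%) called 1 lower (Mcm2, -0.35, adjusted p = 0.0371). Slide as a block, where arrays of the same pools count as separate (16.5%), called 1 higher (Cdc20) and 3 lower (Ccnd3, Cdk4 and Gins1). Cy3 on null alone (7.21%) called 1 lower (E2f1, -0.49, adjusted p = 0.0161), and Bub1b turned to 0.08. Cy5 on null alone (12.8%) called 2 higher (Mcm4, 0.32, and Mycn, 0.31) and 1 lower (Cdk4, -0.49, adjusted p = 0.01). With Cy3 on null, Mcm4 and Mycn both read -0.08 and Cdk4 read -0.01. The cause of these changes was not tested. Median centring moved the median of replication genes to 0.09 and of mitosis genes to 0.08, with all genes at 0.04. It raised the share of calls that were higher from 59.7% to 79.4%. The Ccnd2 stage difference, a value chosen after seeing the data, kept its direction in all 19 alternatives, from 0.61 to 0.76. These alternatives used the brightest probe or the mean of all probes. On its own, the dimmest of the 3 Ccnd2 probes read -0.16 and 0.34 at the stages, less than 1.5-fold apart.

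The number of genes called in all was 1678, and 489 without background correction, 981 with uneven backgrounds kept, 1159 with median centring, 736 with no filter on dim probes (28307 genes), 665 without array 3 of 4/5 somites and 2555 with slide as a block. With 1 pool per genotype and stage, the number of pools, and not of arrays, limits precision, and stage and pool cannot be told apart. Every ratio already pairs both genotypes on 1 array. No paired analysis was possible because, beyond that pairing and the slide block above, the array numbers mark dye order and slide and not separate embryos.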
